A study of Mus musculus with 48 samples.

Results

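The 10 genes described here encode feedback inhibitors of the mitogen-activated protein kinase (MAPK) pathway: *Dusp1*, *Dusp4*, *Dusp5*, *Dusp6*, *Spry1*, *Spry2*, *Spry4*, *Spred1*, *Spred2* and *Errfi1*. They were chosen by name and for their known function, with earlier results of these data known. The count table of mouse hippocampus held 24421 genes, and all 10 passed the filter on low counts, as did 15570 genes in all. RNA was sequenced from the microdissected Cornus Ammonis (CA) of 48 male mice, 1 library per mouse, aged 8 weeks by the labels. The mice belonged to 2 conditional knockout lines with a floxed CB1 cannabinoid receptor gene, one crossed to nex-cre (Glu-CB1 line) and the other to dlx5/6-cre (GABA-CB1 line). The nex-cre driver acts in cortical glutamatergic neurons and dlx5/6-cre in forebrain GABAergic neurons, so CB1 remained in all other cells of a CB1-KO mouse. Mice were either taken from the home cage (basal state) or exposed to an unfamiliar open field arena for 5 min, and their tissue was taken about an hour later. The groups were Glu-CB1-WT (5 basal, 5 open field), Glu-CB1-KO (7 and 7), GABA-CB1-WT (6 and 7) and GABA-CB1-KO (6 and 5), where CB1-WT mice were littermates without CB1 deletion. These sizes follow the labels, and the study's text gives those of the GABA-CB1 open field groups the other way round. Mice were picked for sequencing by behaviour, by the purity of the dissected tissue and by *Arc* mRNA as a sign of neuronal activity, so the open field mice were not an unselected sample.

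Receptor tyrosine kinases and synaptic calcium signals activate RAS, which starts a kinase chain of RAF, MEK and the extracellular signal-regulated kinase (ERK). Active ERK induces transcription of early genes, among them genes whose products switch the chain off again. The dual-specificity phosphatases (DUSPs) remove phosphate from MAP kinases, Sprouty and SPRED proteins hold back the activation of RAS and RAF, and Errfi1 (Mig6) blocks the kinase domain of the EGF receptor. In hippocampal neurons, ERK signaling is needed for forms of synaptic plasticity and memory.

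Promoter windows from RefSeq (GRCm38.p6), reaching from 250 bases before to 50 bases after a transcript start, were found for 8 of the 10 genes, with 9 windows in all. 4 are shown because these genes rose after the open field and their windows differ in the sites that activity-regulated factors can bind. Capitals mark the full cAMP response element (CRE, TGACGTCA) in *Dusp1* and *Errfi1* and a pair of adjoining CArG boxes, the motif of serum response factor, in *Dusp5*. The *Dusp6* window held none of the motifs searched and is in lower case throughout.
Dusp1, chr17:26508423-26508722, minus strand: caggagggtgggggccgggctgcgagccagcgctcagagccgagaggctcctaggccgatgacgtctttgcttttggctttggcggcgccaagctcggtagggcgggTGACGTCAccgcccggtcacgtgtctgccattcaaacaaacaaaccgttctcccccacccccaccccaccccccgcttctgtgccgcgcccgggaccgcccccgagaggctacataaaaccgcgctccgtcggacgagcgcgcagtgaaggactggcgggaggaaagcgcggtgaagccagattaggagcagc
Errfi1, chr4:150854820-150855119, plus strand: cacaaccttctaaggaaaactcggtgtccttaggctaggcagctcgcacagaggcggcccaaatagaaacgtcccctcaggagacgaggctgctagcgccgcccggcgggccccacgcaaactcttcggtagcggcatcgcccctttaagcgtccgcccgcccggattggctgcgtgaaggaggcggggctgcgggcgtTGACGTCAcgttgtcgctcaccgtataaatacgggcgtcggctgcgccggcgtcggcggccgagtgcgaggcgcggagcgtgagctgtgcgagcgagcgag
Dusp5, chr19:53528895-53529194, plus strand: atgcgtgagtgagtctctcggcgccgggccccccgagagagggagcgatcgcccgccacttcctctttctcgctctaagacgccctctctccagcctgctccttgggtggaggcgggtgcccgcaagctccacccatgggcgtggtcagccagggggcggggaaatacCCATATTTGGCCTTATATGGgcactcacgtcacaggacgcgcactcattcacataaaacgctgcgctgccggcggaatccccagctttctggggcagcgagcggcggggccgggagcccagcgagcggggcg
Dusp6, chr10:99262981-99263280, plus strand: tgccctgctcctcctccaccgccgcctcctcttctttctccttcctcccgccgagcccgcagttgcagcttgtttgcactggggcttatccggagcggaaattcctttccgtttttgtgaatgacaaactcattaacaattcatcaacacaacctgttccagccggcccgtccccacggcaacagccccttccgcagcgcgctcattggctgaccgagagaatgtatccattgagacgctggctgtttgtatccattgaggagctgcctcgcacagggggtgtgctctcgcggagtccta

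The CRE began 143 bases before the transcript start in *Dusp1* and 51 bases before it in *Errfi1*, and the other *Errfi1* window had none. The CArG boxes of *Dusp5* began 82 and 72 bases before the start. Over all 32851 promoter windows of this length, searched on both strands, 1.79% held a full CRE and 1.63% a CArG box. A single CRE core (TGACG, also part of the full element) stood in 4 of the 9 windows, those of *Dusp1*, *Dusp5*, *Spred2* and *Errfi1*, and in 20.8% of all windows. No window of the 10 genes held the AP-1 site TGACTCA or the ETS site CCGGAAG, which 5.20% and 8.86% of all windows held. The matches describe letters in these windows only.

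Each library held between 25892654 and 34091080 reads assigned to genes, and *Cnr1*, the gene of CB1, did not overlap between the genotypes within either line and was lower in CB1-KO mice. Its mean over the 8 groups lay between 349 and 379 CPM (TMM-normalized counts scaled to a common library size) in the CB1-WT groups, between 221 and 228 CPM in the Glu-CB1-KO groups and between 135 and 149 CPM in the GABA-CB1-KO groups. Pyramidal and interneuron markers were present in every library, as were those of glia, and dentate granule cell markers summed to between 102 and 314 CPM. 3 libraries stood apart by choroid plexus markers, with 642 CPM in Glu-CB1-KO basal replicate 6, 1524 CPM in GABA-CB1-WT basal replicate 3 and 4075 CPM in GABA-CB1-KO open field replicate 4, against 43.3 to 288 CPM in the other 45. A further axis, the first principal component of log2 CPM with 17.5% of the variance, split the libraries into 18 below 0 and 30 above 0, with 9 basal and 9 open field libraries below 0. *Spred2* followed this axis with r = 0.58 over the 48 libraries, *Spred1* with 0.37 and *Spry2* with 0.35, and the other 7 genes lay between -0.09 and 0.18. In whole tissue, fewer cells of a type and less RNA per cell cannot be told apart.

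Per kilobase of exon, *Spred2*, *Spred1* and *Dusp6* were the most abundant of the 10 in the basal state, with 24.4 ± 1.5, 23.8 ± 1.8 and 23.2 ± 2.6 CPM per kb (SD, n = 24). These 3 neighbours did not differ beyond their spread. *Spry2*, at 17.8 ± 1.8, and *Errfi1*, at 15.3 ± 1.7 CPM per kb, followed. *Dusp4* (6.84 ± 0.89), *Dusp5* (6.36 ± 1.1) and *Dusp1* (5.21 ± 0.70) formed a lower group, in which *Dusp4* and *Dusp5* did not differ beyond their spread. *Spry1* (3.73 ± 0.29) and *Spry4* (3.09 ± 0.38 CPM per kb) were lowest. Among the 15570 genes tested, these levels ran from percentile 33.4 for *Spry4* to percentile 80.6 for *Spred2*. The counted model of *Dusp5* is 1155 bases long and begins 173 bases inside its RefSeq start, which affects its level per kb and not the comparison between groups.

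**Figure D1:**
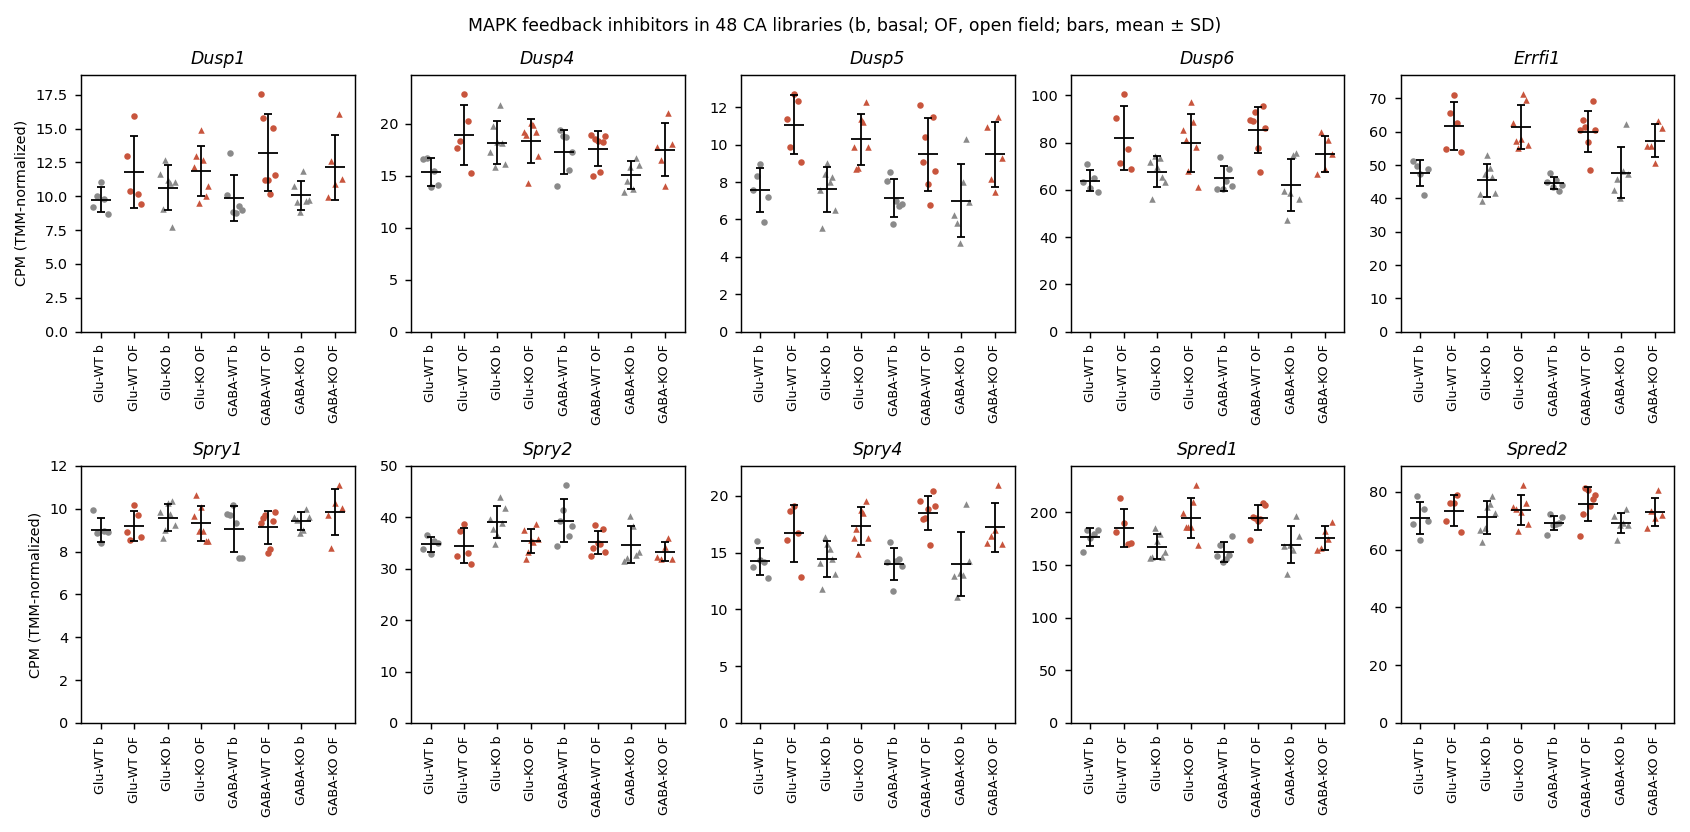
TMM-normalized CPM (y axes, from 0) of the 10 genes in every library of the 8 groups (x axes; grey, basal; red, open field; circles, CB1-WT; triangles, CB1-KO), with bars for the mean ± SD. Open field libraries of *Errfi1* lay above the basal libraries of their own line and genotype in 3 of 4 strata, whereas *Spry1* stayed between 7.70 and 11.1 CPM throughout.

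The first comparison asked how the genes responded to the open field, over all 48 mice with line and genotype accounted for. 6 of the 10 genes rose (*Errfi1*, *Dusp5*, *Spry4*, *Dusp6*, *Spred1* and *Dusp1*) and 1 fell (*Spry2*) at a Benjamini-Hochberg adjusted p under 0.05 in edgeR's quasi-likelihood test, the threshold for a call used throughout. Of all 15570 genes tested, 5.89% were called higher and 3.23% lower. The median log2 fold change was 0.22 over the 10 genes and -0.0049 over all genes tested. The 10 genes were chosen with earlier results of these data known, so this contrast is a description and not a test. The 6 increases ran from 1.12-fold for *Spred1* to 1.37-fold for *Dusp5*. Within each line the labels number all basal libraries before all open field ones, so state and library number cannot be told apart.

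Among the DUSPs, *Dusp5* (chr19:53529318-53541322 in mm10, as for the other genes), a nuclear phosphatase selective for ERK, changed most. Its level ran from 4.74 CPM through a median of 7.40 to 10.3 CPM in the 24 basal libraries and from 6.75 through 9.89 to 12.7 CPM in the 24 open field libraries. The states overlapped, with 11 open field libraries above the highest basal one and 23 of 24 above the basal median. *Dusp5* rose by a log2 fold change of 0.45 ± 0.07 (SE, 1.37-fold, adjusted p = 2.03e-05). *Dusp6* (chr10:99263231-99267489), the cytoplasmic phosphatase of ERK, ran from 47.3 through 63.7 to 75.7 CPM in the basal state and from 61.4 through 81.2 to 101 CPM after the open field. 16 of 24 open field libraries exceeded every basal library, and the log2 fold change was 0.31 ± 0.05 (1.24-fold, adjusted p = 2.54e-05).

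*Dusp1* (chr17:26505591-26508472), a nuclear phosphatase that also acts on p38 and JNK, ran from 7.73 through 9.77 to 13.2 CPM in basal libraries and from 9.44 through 11.4 to 17.6 CPM in open field libraries. 6 open field libraries lay above the basal range and 22 of 24 above the basal median, with a log2 fold change of 0.28 ± 0.07 (1.21-fold, adjusted p = 0.00456). *Dusp4* (chr8:34807610-34819894), its close relative, had medians of 16.4 and 18.4 CPM in the basal and open field libraries, and only 1 open field library lay above the basal range of 13.4 to 21.8 CPM. Its log2 fold change of 0.12 ± 0.05 was not called (adjusted p = 0.114).

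*Errfi1* (chr4:150855091-150868880) ranked 7th of all genes by p. Basal libraries ran from 39.2 through 46.03 to 62.2 CPM and open field libraries from 48.7 through 60.5 to 71.4 CPM. Every one of the 24 open field libraries lay above the basal median, 18 of 24 basal libraries lay below the lowest open field library, and the log2 fold change was 0.38 ± 0.04 (1.30-fold, adjusted p = 1.76e-08). In the 5 Glu-CB1-WT basal libraries *Errfi1* stood at 40.9, 47.2, 48.9, 49.8 and 51.2 CPM, and in the 5 open field libraries at 54.0, 54.9, 62.6, 65.6 and 71.0 CPM. There was no overlap in that stratum, nor in Glu-CB1-KO (39.2 to 53.2 CPM basal, 55.1 to 71.4 CPM open field) and GABA-CB1-WT (42.2 to 47.7 CPM basal, 48.7 to 69.1 CPM open field). In GABA-CB1-KO 1 basal library at 62.2 CPM reached into the open field range of 50.6 to 63.3 CPM.

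The only other gene of the 10 without overlap in a stratum was *Dusp5* in Glu-CB1-WT mice. The basal libraries there stood at 5.87, 7.23, 7.58, 8.33 and 8.95 CPM and the open field libraries at 9.07, 9.89, 11.4, 12.3 and 12.7 CPM. Open field libraries all lay above basal libraries for 2 of the 10 genes in Glu-CB1-WT (0.629% of all genes tested), for 1 in Glu-CB1-KO (0.173%), for 1 in GABA-CB1-WT (0.482%) and for none in GABA-CB1-KO (0.681%).

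Of the Sprouty genes, *Spry4* rose, *Spry2* fell and *Spry1* was not called. *Spry4* (chr18:38586265-38601268) ran from 11.1 through 14.2 to 19.3 CPM in the basal state and from 12.9 through 17.5 to 20.96 CPM after the open field. 23 of 24 open field libraries lay above the basal median and 4 above the basal range, for a log2 fold change of 0.30 ± 0.05 (1.23-fold, adjusted p = 2.46e-05). *Spry2* (chr14:105891947-105896819) had a basal median of 36.6 CPM (31.6 to 46.3) and an open field median of 34.6 CPM (30.9 to 38.7).

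8 basal libraries of *Spry2* lay above every open field library, 18 of 24 open field libraries lay below the basal median, and the log2 fold change was -0.10 ± 0.03 (adjusted p = 0.0350). Without the 3 libraries high in choroid plexus markers it was -0.10 with an adjusted p of 0.0514. The call was also lost in the joint fit of all 48 libraries (-0.09, adjusted p = 0.0593), among the libraries above 0 (-0.12, 0.0721) and below 0 (-0.09, 0.628) on the first component, and on leaving out any one of 11 libraries (log2 fold change -0.10 to -0.09, adjusted p 0.050004 to 0.0638). These were Glu-CB1-KO basal replicates 5 and 7, Glu-CB1-WT open field replicate 5, Glu-CB1-KO open field replicates 2 and 3, GABA-CB1-WT basal replicates 3 and 4, GABA-CB1-KO basal replicates 3 and 4, and GABA-CB1-WT open field replicates 1 and 7. *Spry1* (chr3:37639947-37644599) had medians of 9.40 and 9.498 CPM and a log2 fold change of 0.01 ± 0.04 (adjusted p = 0.897).

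Of the SPRED genes, whose products bind RAF and recruit the RAS inactivator neurofibromin, *Spred1* (chr2:117121071-117182277) ran from 142 through 168 to 197 CPM in basal libraries and from 164 through 188 to 226 CPM in open field libraries. 22 of 24 open field libraries lay above the basal median and 6 above the basal range, with a log2 fold change of 0.16 ± 0.03 (1.12-fold, adjusted p = 7.68e-04). *Spred2* (chr11:19924442-20022597) had medians of 69.2 and 74.4 CPM and a log2 fold change of 0.08 ± 0.03 that was not called (adjusted p = 0.0710). *Spred2* passed with the animal number range as a covariate (0.09, adjusted p = 0.0203). This range was low or high within each line, from the numbers in the labels. *Spred2* passed too with the first component as a covariate (0.08, adjusted p = 0.00774), and 8 of the 10 genes were called in each fit. With the first component, 1162 of all 15570 genes were called higher and 672 lower, more than the 5.89% and 3.23% without it. The gain in that fit was thus not particular to the 10 genes. With the animal number range, slightly fewer of all genes were called in each direction than without it. *Spred2* also passed when Glu-CB1-WT basal replicate 2, Glu-CB1-KO basal replicate 6, Glu-CB1-WT open field replicate 5, Glu-CB1-KO open field replicate 3, GABA-CB1-WT open field replicate 1 or GABA-CB1-KO open field replicate 1 was left out (0.08 to 0.09, adjusted p 0.0376 to 0.0486).

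Without the 3 libraries high in choroid plexus markers, 6 of the 10 genes were called higher (*Errfi1*, *Dusp5*, *Spry4*, *Dusp6*, *Spred1* and *Dusp1*), where 682 of 15585 genes were called higher and 343 lower, at log2 fold changes between 0.15 for *Spred1* and 0.43 for *Dusp5*. Among the 30 libraries above 0 on the first component, where 485 of 15550 genes were called higher and 250 lower, 5 of the 10 were called higher, and *Errfi1* changed by 0.41 (adjusted p = 2.76e-05), *Dusp5* by 0.44, *Dusp6* by 0.30, *Spry4* by 0.27 and *Spred1* by 0.16. Among the 18 libraries below 0, where 10 genes of all 15892 tested were called higher and 1 lower, only *Errfi1* was called (0.34, adjusted p = 0.00715). There the log2 fold change was 0.52 for *Dusp5*, 0.36 for *Dusp6*, 0.34 for *Dusp1* and *Spry4* each and 0.15 for *Spred1*, none of them called.

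**Figure D2:**
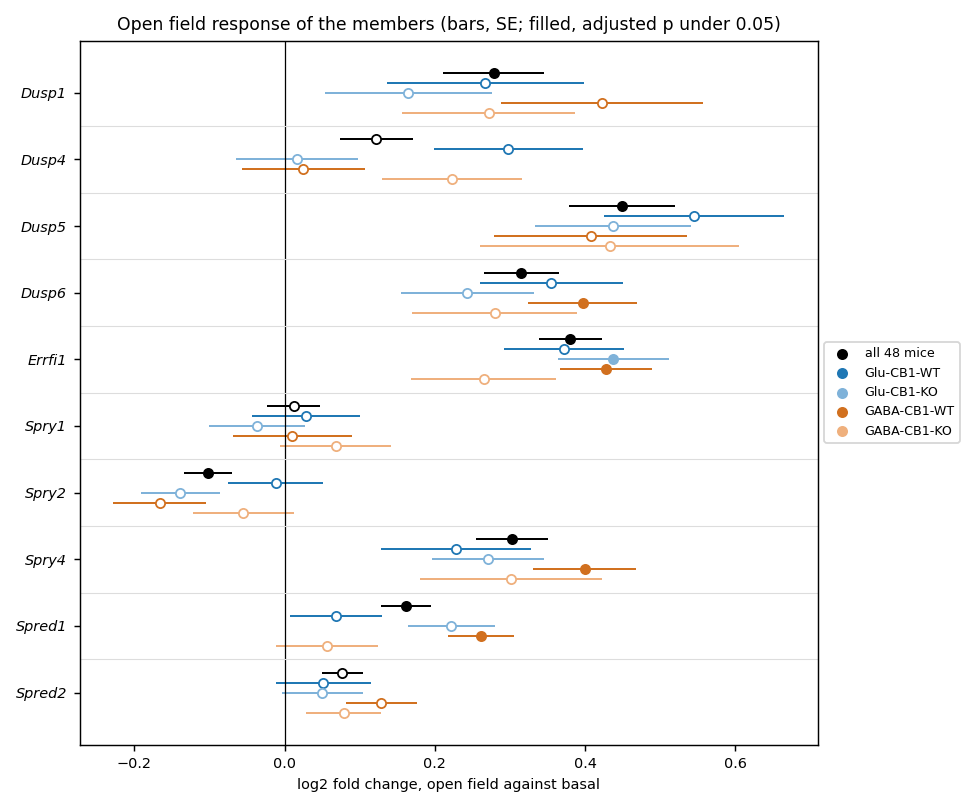
Log2 fold change of each gene between open field and basal libraries (x axis) with its SE as a bar, over all 48 mice and in each line and genotype, with filled symbols for an adjusted p under 0.05. *Dusp5*, *Errfi1*, *Dusp6*, *Spry4*, *Dusp1*, *Spred1*, *Spred2* and *Dusp4* lay right of 0 in all 5 fits, *Spry2* lay left of 0 in all 5, and *Spry1* lay within 0.07 of 0.

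By line, 4 genes were called higher in the Glu-CB1 line, where 1.33% of 15355 genes were called higher and 0.469% lower. They were *Errfi1* (log2 fold change 0.41 ± 0.06, adjusted p = 2.92e-04), *Dusp5* (0.48 ± 0.08, 0.00292), *Dusp6* (0.29 ± 0.07, 0.0275) and *Spry4* (0.25 ± 0.06, 0.0297). The *Dusp6* call was lost without Glu-CB1-WT basal replicate 5, Glu-CB1-KO basal replicate 7 or Glu-CB1-KO open field replicate 4 (0.26 to 0.28, adjusted p 0.0518 to 0.0556). That of *Spry4* was lost without any of these 3, or without Glu-CB1-KO basal replicate 1, Glu-CB1-WT open field replicates 2 or 3, or Glu-CB1-KO open field replicate 6 (0.23 to 0.25, adjusted p 0.050007 to 0.0605). *Spred1*, at 0.16 (adjusted p = 0.0749), gained a call without Glu-CB1-WT open field replicate 5 or Glu-CB1-KO open field replicate 7 (0.17, adjusted p 0.0424 to 0.0443).

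In the GABA-CB1 line 3 genes were called higher, where 0.761% of 15374 genes were called higher and 0.202% lower. They were *Errfi1* (0.35 ± 0.06, adjusted p = 0.00314), *Dusp6* (0.34 ± 0.07, 0.0139) and *Spry4* (0.36 ± 0.07, 0.0139). *Dusp5* had a log2 fold change of 0.42 ± 0.11 (adjusted p = 0.0648), *Dusp1* of 0.35 ± 0.10 (0.0743) and *Spred1* of 0.17 ± 0.05 (0.0776). Without the 2 libraries of this line high in choroid plexus markers, only *Errfi1* was called, and *Dusp6* (0.32) and *Spry4* (0.29) each had an adjusted p of 0.0686. The count rose to 5 without GABA-CB1-KO basal replicate 5, GABA-CB1-WT open field replicate 5 or GABA-CB1-KO open field replicate 1, where *Dusp1*, *Dusp5* or *Spred1* passed, and *Dusp1* also passed without GABA-CB1-WT basal replicate 2 (0.38 to 0.40 for *Dusp1*, 0.46 to 0.48 for *Dusp5*, 0.19 for *Spred1*).

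The difference of the open field response between the lines was itself tested. By edgeR 0 of the 10 genes were called, 0 had an unadjusted p under 0.05 and DESeq2 called 0, where 0% of 15570 genes were called (1.90% at an unadjusted p under 0.05, and 0 genes by DESeq2). The differences, GABA-CB1 minus Glu-CB1, ran from -0.06 for *Errfi1* and *Dusp5* to 0.15 for *Dusp1*, with SEs of 0.06 to 0.14.

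Within the single strata the fits had 10 to 14 libraries. In GABA-CB1-WT mice 4 genes were called higher, against 0.159% of 15116 genes called in either direction: *Errfi1* (0.43 ± 0.06, adjusted p = 0.00720), *Spred1* (0.26 ± 0.04, 0.0253), *Spry4* (0.40 ± 0.07, 0.0265) and *Dusp6* (0.40 ± 0.07, 0.0381). *Errfi1* kept its call whichever of the 13 libraries was left out, and the other 3 calls did not. Those of *Spred1*, *Spry4* and *Dusp6* were all lost without basal replicates 1, 3, 4 or 5 or open field replicates 2 or 6. *Spry4* and *Dusp6* also lost theirs without basal replicate 6 or open field replicate 7, *Spry4* without open field replicate 4, and *Dusp6* without open field replicates 1 or 3. Over these fits the log2 fold change was 0.25 to 0.26 for *Spred1*, 0.35 to 0.41 for *Spry4* and 0.37 to 0.41 for *Dusp6*.

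In Glu-CB1-KO mice 1 gene, *Errfi1*, was called (0.44 ± 0.07, adjusted p = 0.0318), against 0.0732% of 15021 genes, and DESeq2 called 4 of the 10 and 171 genes in all. The call was lost without basal replicates 1, 2, 6 or 7 or open field replicates 1, 2, 4, 5 or 6 (0.39 to 0.45, adjusted p 0.0581 to 0.126). In Glu-CB1-WT mice 0 of the 10 genes were called by edgeR, as were 0% of 14991 genes (5.54% at an unadjusted p under 0.05, and 20 genes by DESeq2). An unadjusted p under 0.05 was reached by 5 of the 10, and DESeq2 called 2, *Dusp5* and *Errfi1*. In GABA-CB1-KO mice 0 were called by edgeR, as were 0% of 15081 genes (12.1% at an unadjusted p under 0.05, and 82 genes by DESeq2), 6 had an unadjusted p under 0.05 and DESeq2 called 0. *Dusp5* had log2 fold changes of 0.54 ± 0.12, 0.44 ± 0.10, 0.41 ± 0.13 and 0.43 ± 0.17 in CB1-WT and CB1-KO mice of the Glu-CB1 line and CB1-WT and CB1-KO mice of the GABA-CB1 line.

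The interaction of genotype with the open field asked whether these responses differed between CB1-KO and CB1-WT mice. It was called for 0 of the 10 genes by edgeR and by DESeq2 in either line, where 0% of 15355 and 0% of 15374 genes were called for Glu-CB1 and GABA-CB1. At an unadjusted p under 0.05 these shares were 2.47% and 14.6%, and DESeq2 called 0 and 60 genes. 1 of the 10 genes in each line had an unadjusted p under 0.05. In the Glu-CB1 line it was *Dusp4*, with a response of 0.30 ± 0.10 in CB1-WT and 0.02 ± 0.08 in CB1-KO mice and a difference of -0.28 ± 0.13 (adjusted p = 1.00, edgeR). In the GABA-CB1 line it was *Spred1*, with a response of 0.26 ± 0.04 in CB1-WT and 0.06 ± 0.07 in CB1-KO mice and a difference of -0.21 ± 0.08 (adjusted p = 0.271, edgeR).

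Next, CB1-KO mice were compared with their CB1-WT littermates in each state. None of the 10 genes was called in any of the 4 comparisons by edgeR, and DESeq2 called 0 as well. In the basal state 0.0198% of 15138 genes were called in the Glu-CB1 line and 0.245% of 15082 genes in the GABA-CB1 line, and after the open field 0.272% of 15078 and 0.0199% of 15097 genes. 2 of the 10 genes had an unadjusted p under 0.05 in basal Glu-CB1 mice, 0 in open field Glu-CB1 mice and 2 in the GABA-CB1 line in each state. Of all genes, 3.57% (basal) and 6.97% (open field) in the Glu-CB1 line and 8.16% and 13.2% in the GABA-CB1 line had such a p, and DESeq2 called 10, 129, 106 and 146 genes. The medians of the 10 log2 fold changes were 0.05, 0.01, -0.0026 and -0.07 in Glu-CB1 basal, Glu-CB1 open field, GABA-CB1 basal and GABA-CB1 open field mice, beside medians over all genes between -0.0025 and 0.0017.

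The same pair, *Dusp4* and *Spry2*, had an unadjusted p under 0.05 in the basal state of both lines. The 2 genes varied together over the 48 libraries (r = 0.44 with the mean of each of the 8 groups removed). In the Glu-CB1 line, *Dusp4* stood at 13.9, 14.1, 15.4, 16.6 and 16.7 CPM in the 5 CB1-WT libraries and ran from 15.9 through 18.2 to 21.8 CPM in the 7 CB1-KO libraries. The groups overlapped between 15.9 and 16.7 CPM, and the log2 fold change was 0.24 ± 0.08 (adjusted p = 0.999, edgeR). In the GABA-CB1 line, *Dusp4* ran from 14.03 through 18.02 to 19.5 CPM in the 6 CB1-WT libraries and from 13.4 through 15.2 to 16.7 CPM in the 6 CB1-KO libraries. There the CB1-KO libraries were the lower ones, with overlap, at a log2 fold change of -0.20 ± 0.08 (adjusted p = 0.569, edgeR).

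*Spry2* stood at 32.9, 33.9, 35.1, 35.4 and 36.6 CPM in the 5 Glu-CB1-WT basal libraries and ran from 34.9 through 38.8 to 43.9 CPM in the 7 Glu-CB1-KO libraries. The CB1-KO libraries were higher, with overlap at the lower end, at a log2 fold change of 0.17 ± 0.05 (adjusted p = 0.999, edgeR). It ran from 34.5 through 38.8 to 46.3 CPM in the 6 GABA-CB1-WT libraries and from 31.6 through 32.97 to 40.2 CPM in the 6 GABA-CB1-KO libraries. The CB1-KO libraries were lower, again with overlap, at -0.19 ± 0.08 (adjusted p = 0.569, edgeR).

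The difference of the basal CB1-KO effect between the lines was tested directly. It was -0.45 ± 0.12 for *Dusp4* (adjusted p = 0.165, edgeR) and -0.35 ± 0.10 for *Spry2* (adjusted p = 0.173, edgeR), GABA-CB1 minus Glu-CB1. These 2 of the 10 genes had an unadjusted p under 0.05, as did 8.56% of all genes, and 0 of the 10 were called by edgeR, against 0.279% of 15390 genes. DESeq2 called *Dusp4* (-0.45, adjusted p = 0.0490) among 89 genes in all. edgeR called *Spry2* with the animal number range as a covariate (-0.44, adjusted p = 0.0309) and with the first component as a covariate (-0.39, adjusted p = 0.0395). The lines differ in their Cre driver and also in their library numbers, which the labels give to the Glu-CB1 line before the GABA-CB1 line, and these differences cannot be told apart.

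After the open field, 2 of the 10 genes, *Dusp6* and *Spred1*, had an unadjusted p under 0.05 in the GABA-CB1 line, beside 13.2% of all 15097 genes. *Dusp6* stood at 66.6, 68.7, 75.1, 81.2 and 84.5 CPM in the 5 CB1-KO libraries and ran from 67.6 through 89.2 to 95.4 CPM in the 7 CB1-WT libraries. The groups overlapped, with a log2 fold change of -0.18 ± 0.08 (adjusted p = 0.359, edgeR). *Spred1* stood at 164, 167, 175, 182 and 191 CPM in the CB1-KO and ran from 174 through 195 to 209 CPM in the CB1-WT libraries. The CB1-KO libraries lay lower with overlap, at -0.15 ± 0.05 (adjusted p = 0.267, edgeR). The CB1-KO effect after the open field differed between the lines at an unadjusted p under 0.05 for 1 gene, *Spred1* (-0.22 ± 0.09, adjusted p = 0.363, edgeR), beside 10.8% of all 15325 genes, so that the count of 1 in 10 was near the share over all genes. By edgeR and by DESeq2 0 of the 10 genes were called, against 0.568% of all genes by edgeR and 213 genes by DESeq2.

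Control mice of the lines were compared over the 23 CB1-WT libraries. By edgeR 0 of the 10 genes were called, as were 0% of 15350 genes (3.86% at an unadjusted p under 0.05, and 0 genes by DESeq2), and DESeq2 called 0 of the 10. *Spry2* was the only 1 of the 10 with an unadjusted p under 0.05 (0.10 ± 0.05 higher in the GABA-CB1 line, adjusted p = 1.00, edgeR), and the 10 differences ran from -0.16 to 0.10.

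**Figure D3:**
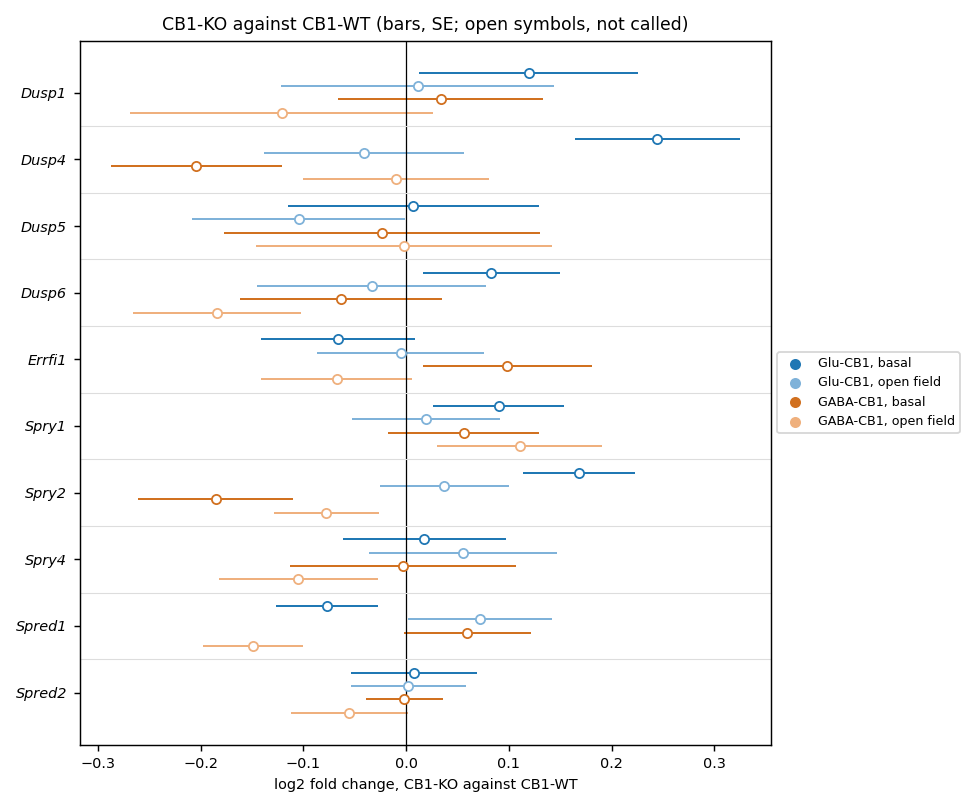
Log2 fold change between CB1-KO and CB1-WT libraries (x axis) for each gene in both lines and states, with the SE as a bar, and no gene called. *Dusp4* and *Spry2* lay right of 0 in Glu-CB1 basal mice (0.24 and 0.17) and left of 0 in GABA-CB1 basal mice (-0.20 and -0.19). For both genes the basal CB1-WT mean was lower in the Glu-CB1 than in the GABA-CB1 line.

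Other genes of the pathway were followed in the same open field comparison over all 48 mice. There, 5.89% of all 15570 genes tested were called higher and 3.23% lower. Of 12 relatives of the inhibitors, such as *Dusp3*, *Dusp7*, *Spred3* and *Lrig1*, 11 were tested and 0 were called by edgeR or DESeq2 (1 at an unadjusted p under 0.05), with a median log2 fold change of -0.01. Among 21 receptors and ligands 2 fell, *Egf*, a ligand of the EGF receptor, by 0.34 ± 0.07 (adjusted p = 8.03e-04) and *Pdgfrb*, a receptor of mural cells, by 0.13 ± 0.03 (adjusted p = 0.0151). Among 20 adaptors, exchange factors and RAS GAPs 1 rose, the phosphatase gene *Ptpn11* (0.04 ± 0.01), and 1 fell, the RAS inactivator *Rasa1* (-0.11 ± 0.03). Each count of 1 in 20 was near the share over all genes.

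Of 16 genes of the RAS, RAF, MEK and ERK chain and its scaffolds 2 rose, the scaffold *Ksr1* (0.12 ± 0.03, adjusted p = 0.00101) and the small GTPase *Mras* (0.08 ± 0.02, 0.00735). Of 10 JNK and p38 kinases tested 2 rose, *Map2k3* (0.13 ± 0.03) and *Mapk14* (0.05 ± 0.01), which encode a p38 activator and p38 alpha. Of 16 ERK substrate kinases and transcription factors 3 rose and 1 fell. Those that rose were *Srf* (0.17 ± 0.03), encoding serum response factor, *Mknk2* (0.20 ± 0.03) and *Ets2* (0.12 ± 0.02), and *Ets1* (-0.13 ± 0.04) fell. The medians of these 3 lists lay between -0.0031 and 0.03.

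The 18 early genes known to depend on ERK had a median of 0.34, with 11 called higher and 1 lower, *Phlda1* (-0.09). The smallest p-values belonged to *Egr4* (0.82 ± 0.07), *Fosb* (1.34 ± 0.11), *Fos* (1.93 ± 0.17, from a mean of 3.19 to 12.3 CPM) and *Egr2* (2.33 ± 0.22, from 1.40 to 6.65 CPM). These transcription factor genes changed more than the inhibitor *Dusp5* (0.45), the largest change among the 10. Of 12 genes known to be induced by glucocorticoids, hormones released on exposure to an unfamiliar place, 7 were called higher and 0 lower, with a median of 0.33. Among them were *Sgk1* (0.51 ± 0.08), *Per1* (0.35 ± 0.06), *Tsc22d3* (0.46 ± 0.10) and *Ddit4* (0.20 ± 0.04). *Dusp1* and *Errfi1* are themselves known targets of the glucocorticoid receptor, and the part of hormones and of ERK in their change was not tested.

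Markers of pyramidal cells, interneurons, dentate granule cells, thalamus, choroid plexus, astrocytes, oligodendrocytes and microglia had 0 called genes in this comparison by edgeR. DESeq2 called 1 microglial marker, and 3 microglial and 1 dentate granule marker had an unadjusted p under 0.05. Of 7 endothelial markers, 6 mural markers and the 1 blood marker tested, 1 in each list was called lower. The mural one was *Pdgfrb*, already counted among the receptors above. All 7 endothelial, all 6 mural and all 7 dentate granule markers had a log2 fold change below 0, with medians of -0.09, -0.07 and -0.09. The summed endothelial markers ran from 100 to 171 CPM in basal and from 95.04 to 172 CPM in open field libraries, and those of mural cells from 131 to 176 and from 119 to 169 CPM. No endothelial or mural marker was at 0 in all libraries, and 3 of 4 blood markers had 0 reads in every library. The cause of these 0 counts was not tested. The summed blood markers ran only from 0.82 to 2.29 CPM in basal and from 0.78 to 2.33 CPM in open field libraries. The part of these cell types in the changes of the 10 genes was not tested.

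**Figure D4:**
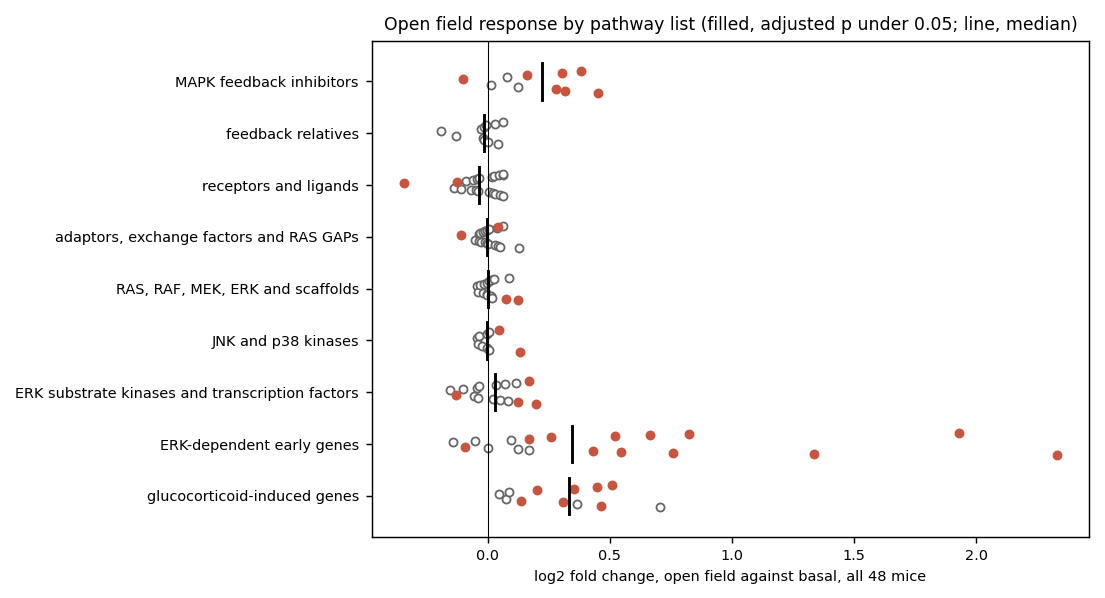
Log2 fold change between open field and basal libraries over all 48 mice (x axis) for every tested gene of the 10 inhibitors and 8 related lists, with filled points for an adjusted p under 0.05 and a line at each list's median. The medians of the inhibitors (0.22), the ERK-dependent early genes (0.34) and the glucocorticoid-induced genes (0.33) lay right of 0, and those of the other 6 lists lay within 0.04 of 0. All lists were chosen with earlier results of these data known.

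Across the 48 libraries the called genes had different nearest neighbours by Pearson's r of log2 CPM. These correlations are descriptions, since the points share the open field contrast and the library-wide axis. *Dusp1* and *Dusp6* had the same 3 nearest genes, namely *Arc*, which encodes a cytoskeletal protein of active synapses, and the early transcription factor genes *Nr4a1* and *Junb*. For *Dusp1* r was 0.85, 0.81 and 0.78 and for *Dusp6* it was 0.87, 0.90 and 0.85. With the mean of each of the 8 groups removed, the same 3 genes were still nearest, at 0.82, 0.75 and 0.74 for *Dusp1* and 0.81, 0.79 and 0.75 for *Dusp6*. *Arc* was also one of the measures by which mice were picked.

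*Dusp5* had *Errfi1* as its nearest of all genes (r = 0.87, and 0.78 with group means removed), followed by *Egr4* (0.83) and *Gadd45b* (0.83). In turn, *Errfi1* was nearest to *Egr4* (0.88), *Dusp5* (0.87) and the alanine transaminase gene *Gpt2* (0.87), and with group means removed *Dusp5* came first. *Spry4* was nearest to the kinase gene *Sbk1* (0.87), *Fos* (0.86) and *Errfi1* (0.83). *Spred1* had none of the early genes among its nearest, which were *Rab8b* (0.85), *Jak2* (0.82) and *Ipmk* (0.81). *Spry2*, the gene that fell, was nearest to *Foxq1* (0.62), *Cldn23* (0.58) and *Kcnj2* (0.56), and each of these 3 also fell after the open field (-0.35, -0.40 and -0.41 on the log2 scale). With group means removed, *Spry2* was nearest to *Dlx6os1* (0.67), *Ppm1l* (0.64) and *Zfp382* (0.63), none of which was called in the open field response (adjusted p = 0.578, 0.660 and 0.733, edgeR).

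Among the 10 genes themselves, with group means removed, the highest correlations were between *Dusp5* and *Errfi1* (0.78), *Dusp5* and *Spry4* (0.70), *Errfi1* and *Spry4* (0.70), *Dusp1* and *Dusp6* (0.67) and *Dusp6* and *Spry4* (0.66). *Dusp1* and *Errfi1*, the genes with a full CRE in a window above, correlated at 0.32. *Spry2* lay between -0.01 and 0.22 with the 6 genes that rose, and its highest correlation among the 10 was with *Dusp4* (0.44).

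**Figure D5:**
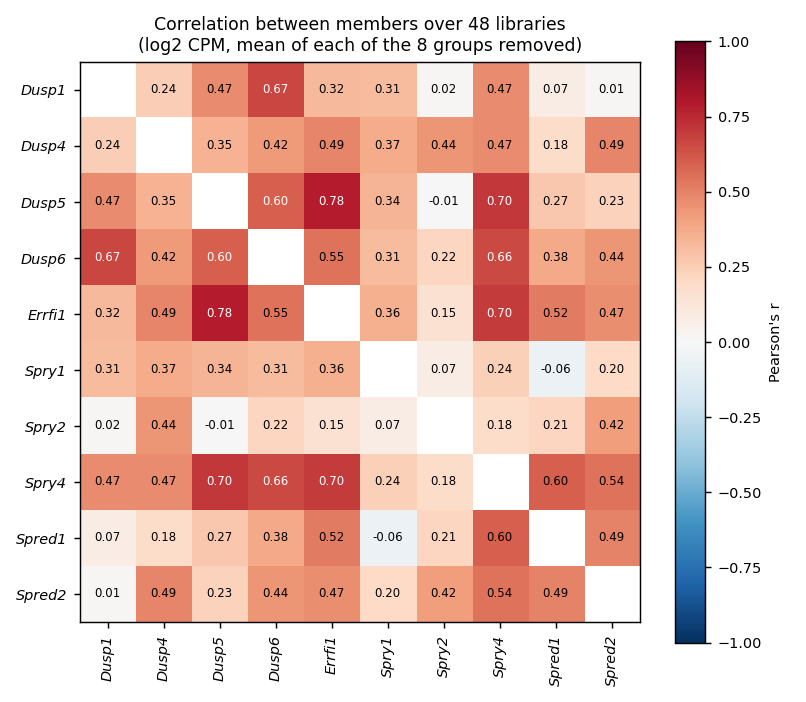
Pearson's r between each pair of the 10 genes over 48 libraries, from log2 CPM with the mean of each of the 8 groups removed (colour from -1, blue, to 1, red, with r printed in each cell). *Dusp5*, *Errfi1* and *Spry4* form the darkest block at 0.70 to 0.78, *Dusp1* and *Dusp6* stand at 0.67, and *Spry1* reached at most 0.37 with any other gene.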

How the data were processed

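The authors trimmed single-end 50-base reads of amplified cDNA (NuGEN Ovation kits, libraries sequenced in pools), aligned them to mm10 with STAR 2.6.0a and counted reads per gene on 1 strand with featureCounts 1.6.2, which gave the deposited raw counts of 48 libraries. Whether the kit keeps strand is not given in the sources used here, so reads of a gene and an antisense partner cannot be told apart; no exon of the 10 genes overlaps another counted gene. Each pool mixed libraries of all groups, and which library went into which pool is not given.

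Counts were fitted with edgeR 4.0.16 in R 4.3.3 (TMM scaling, filterByExpr, quasi-likelihood F test, Benjamini-Hochberg adjustment over all genes tested, call under 0.05) in 17 comparisons, each on its own libraries. The open field fit over all mice had line and genotype as covariates, and the fits by line had genotype. The SE is the absolute log2 fold change divided by the square root of F. CPM are TMM-normalized over the 48 libraries. Correlations used log2 CPM with a prior count of 2. The scripts were tested on simulated data. DESeq2 1.42.0, RLE scaling, other filters, animal number range, a replicate block, a joint fit and each library left out were the alternatives. The first component (500 most variable genes), used as a covariate or to split libraries, and leaving out libraries over 500 CPM of choroid plexus markers were chosen after seeing the data. The 10 genes and all gene lists were chosen with earlier results of these data known. Named genes: all 10 in open field comparisons, elsewhere those with an unadjusted p under 0.05; per list, up to 4 called genes with the smallest p; for each called gene its 3 nearest by r. Replicates are separate mice, and no pair of libraries within a group (123 pairs) agreed within sampling noise.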

Additional observations from a re-analysis of the deposited data

Results flagged for a closer look

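In 3 of 80 combinations of a gene and a group, 1 library stood far from the others by Dixon's ratio of gap to range at 95%, and chance gives about 1 in 20. *Dusp1* was 13.2 CPM in GABA-CB1-WT basal replicate 2, where the next library had 10.1 CPM and the others a median of 9.01 CPM. *Spry4* was 20.96 CPM in GABA-CB1-KO open field replicate 4, where the next library had 16.98 CPM and the others a median of 16.2 CPM, and this library also had the highest choroid plexus marker sum (4075 CPM). *Errfi1* was 62.2 CPM in GABA-CB1-KO basal replicate 5, where the next library had 48.3 CPM and the others a median of 45.7 CPM.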

How the results depend on the processing

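RLE scaling and both other filters on low counts changed no call among the 10 genes in any open field fit or other comparison. The count of genes called in the open field response over all mice was 1 among libraries with a first component below 0 against 7 as reported, and 6 to 8 with each library left out. Of all 15892 genes tested below 0, 10 were called higher and 1 lower. In the Glu-CB1 line it was 0 below 0 on that component against 4, and 2 to 5 with each library left out. There it was 5 with DESeq2 (502 genes in all) and with the first component as a covariate, where *Spred1* gained a call. In the GABA-CB1 line 3 became 6 with DESeq2 (276 genes in all), 5 with the animal number range and 1 with the replicate block. The count was 4 with the first component as a covariate and in the fit of all 48 libraries. It was 0 below and 0 above 0 on the component, 1 without the libraries high in choroid plexus markers, and 3 to 5 with each library left out. In Glu-CB1-WT mice 0 became 2 with DESeq2 and 1 above 0 on the component. In Glu-CB1-KO mice 1 became 4 with DESeq2, 2 in the fit of all 48 libraries, and 0 with the animal number range, below 0, above 0 or without the choroid-high library, and 0 to 1 with each library left out. In GABA-CB1-WT mice 4 became 2 with the replicate block, 0 above 0 on the component and 1 without the choroid-high library, and 1 to 4 with each library left out. There it was 3 with the animal number range and in the fit of all 48 libraries, where *Dusp6* lost its call. The difference of the basal CB1-KO effect between lines went from 0 to 1 with DESeq2, with the animal number range and with the first component. Outside DESeq2 and the open field response over all mice, counts over all genes in these settings are not given here. A shift of the 10 genes alone therefore cannot be told apart from a shift over all genes. Splits and fits with a library left out hold fewer samples, and the cause of the shifts in these counts was not tested.

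Signs changed only for differences that were not called. *Spry1* became -0.011 above 0 on the component over all mice, 0.014 below 0 and 0.0012 without the choroid-high library in the Glu-CB1 line, where it ran from -0.029 to 0.0017 with each library left out. *Spry2* in Glu-CB1-WT became 0.0081 with the animal number range and 0.030 above 0 on the component, and ran from -0.057 to 0.026 with each library left out. *Spred1* in GABA-CB1-KO became -0.0047 above 0. With group means removed, 8 of 23 same-numbered pairs of a basal and an open field library correlated above 0.1 (-0.22 to 0.38). Differently numbered pairs were not compared, so whether replicate numbers pair the libraries was not tested. The replicate block left 7 genes called over all mice and 4 in the Glu-CB1 line, whereas GABA-CB1 mice lost the calls of *Dusp6* (0.34, adjusted p = 0.0604) and *Spry4* (0.36, 0.0590). Fits of the 18 libraries below 0 were not made where a side kept fewer than 2 libraries. Counts per library ran from 114 for *Dusp5* to 7022 for *Spred1*.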
